A study of Sus scrofa with 6 samples.

Results

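The interferon response and antiviral sensor genes of the porcine aortic valve were examined across leaflets of male and female pigs. The members were chosen by gene symbol alone, through a fixed set of names and prefixes (IFI, IFIT, OAS, IRF, STAT, MX, GBP, ISG, interferon receptors, TLR, some TRIM proteins and named single genes) with no threshold on a measured value. The rule found 55 genes on 96 probe sets, out of 6765 genes that the annotation of the array names on 10069 probe sets with a single symbol. Each gene is represented by the probe set with the highest mean over the 6 arrays. Leaflets came from 3 castrated males and 3 females of mixed breed, aged 5 months and of about 90 kg, and each pig was read on its own Affymetrix Porcine array. The surface endothelium had been scraped by scalpel in both sexes, to leave the valvular interstitial cells (VICs). The study checked its removal by staining on a parallel set of leaflets. The comparison is thus of castrated males with females, in leaflets that received no stimulus.

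Interferons are secreted proteins that warn neighbouring cells of infection. Cells detect foreign nucleic acids and microbial products with sensors such as the Toll-like receptors (TLR) and the RNA helicase DDX58 (also known as RIG-I), interferon regulatory factors (IRF) then switch on interferon genes, and interferon receptors pass the signal through JAK kinases and STAT factors to a large set of interferon-stimulated genes. Type I interferons act through IFNAR1 and IFNAR2 and induce antiviral effectors such as RSAD2, ISG15, OAS1, MX1 and the IFIT proteins, whereas interferon gamma acts through IFNGR1 and strongly induces IRF1, the guanylate binding proteins (GBP) and antigen processing genes.

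Values are on the log2 scale of the authors' RMA processing, where a difference of 1 is 2-fold. The array medians lay between 7.33 and 7.38, and 25% of all values were below 5.53, a level used here only to mark dim probe sets. The correlation between arrays was 0.972 to 0.987 across the sexes and 0.987 to 0.993 within a sex. The Y-linked EIF1AY separated the labelled sexes without overlap. The difference between the 3′ and the 5′ control probe sets of actin, which grows as RNA is degraded, was 2.35 to 2.57 in the males and 2.84 to 3.80 in the females, and that of GAPDH 1.78 to 2.14 in the males and 1.80 to 2.69 in the females. At actin every female was above every male, while the sexes overlapped at GAPDH. The highest value of both was on the array of female 3. Precision is limited by the number of arrays, and with 3 pigs a sex the smallest p of an exact permutation test is 0.1, so none is given.

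The 3 largest log2 fold changes (male minus female) belonged to the antiviral effectors RSAD2, ISG15 and OAS1, and RSAD2 alone rose in male leaflets when limma was run after a filter on the coefficient of variation (CV, the SD divided by the mean of the 6 log2 values). The methods of the study name such a filter, and here it kept the top 10% by CV, which are 2412 probe sets. Their wording can also be read as the removal of the most variable values. The study lists RSAD2 among its differentially expressed genes, however, so its filter kept RSAD2. A probe set was called at an adjusted p under 0.05 and at least 2-fold, which 7.59% of the probe sets kept by the CV filter met (4.6% of them as higher in males). The filter kept 6 of the 55 genes (RSAD2, ISG15, OAS1, GBP1, IRF1 and SOCS3), where it kept 7.42% of all annotated genes, and 1 of the 6 was called. Because such a filter favours probe sets that differ between the sexes, limma was also run on all 23999 probe sets other than controls, of which 0.304% were called. None of the 55 genes was called there, and their smallest adjusted p was 0.0704, at DDX58. Adjusted p values below are from this second run unless the CV filter is named.

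Before adjustment, 14 of the 55 genes were higher and 1 was lower in males at a limma p under 0.05. These 14 are 25.5% of the interferon genes, against 11.0% of all annotated genes that were higher and 6.53% that were lower by the same limit. Male and female values were fully apart for 15 genes that were higher in males (27.3%, against 15.7% of all annotated genes) and for 1 that was lower (1.82%, against 9.08%). Over both directions the sexes did not overlap for 24.7% of all annotated genes and 22.4% of all probe sets. By their means, 38 interferon genes were higher and 17 lower in males (69.1% higher, against 58.3% of all annotated genes, a share to which the counts of each role below also compare), and their median log2 fold change was 0.18, against 0.05 for all annotated genes. As the plot of fold changes shows, RSAD2, ISG15 and OAS1 were the 3 interferon genes at 2-fold or more.

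**Figure D1:**
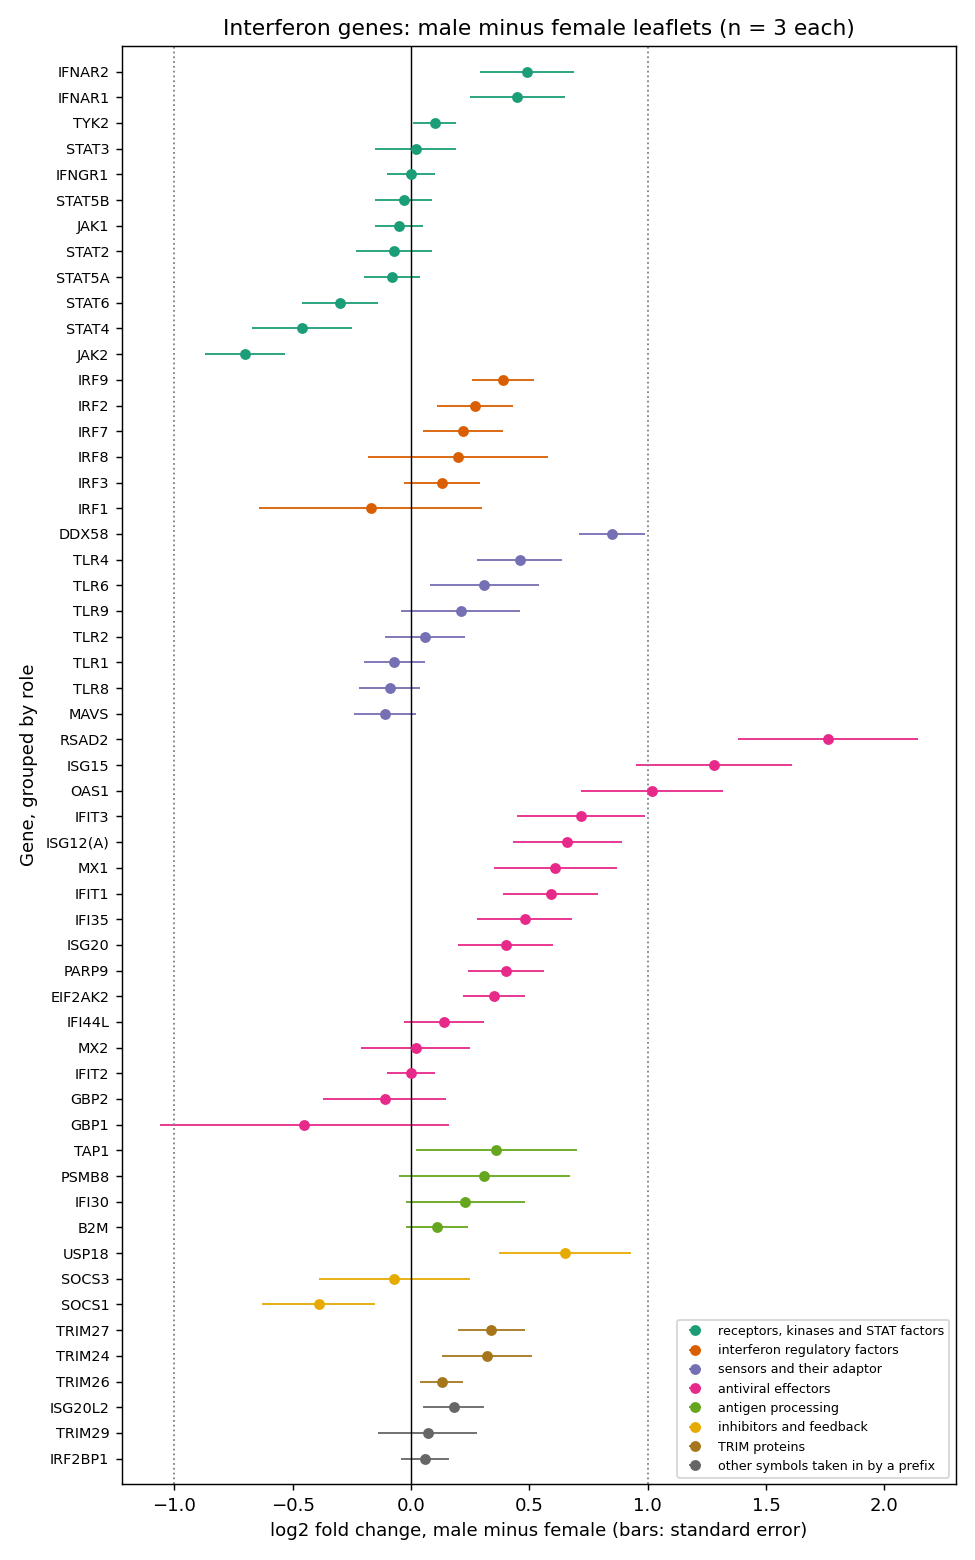
Log2 fold change (male minus female, 3 arrays each) of the 55 interferon genes on the x axis, grouped by role on the y axis, with the limma standard error as bars and dotted lines at 2-fold. RSAD2 (1.76), ISG15 (1.28) and OAS1 (1.02) lie beyond the upper line, and JAK2 (-0.70) has the lowest value.

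RSAD2 (viperin), an enzyme that makes a chain-terminating nucleotide against viral polymerases, had log2 values of 10.27, 9.52 and 8.91 in males 1, 2 and 3, against 7.48, 8.41 and 7.51 in females 1, 2 and 3. Each male lay above each female, and female 2 was the nearest to the males. The means were 9.56 ± 0.68 in males and 7.80 ± 0.53 in females (SD, n = 3 each). The difference of 1.76 on the log2 scale (standard error 0.38) is a 3.39-fold higher level in males, at an adjusted p of 0.0339 under the CV filter and 0.122 over all probe sets (limma). Leaving out male 1, male 2, female 1 or female 3 ended the call under the CV filter (limma, adjusted p = 0.111, 0.0584, 0.077 and 0.0956), while the log2 fold change stayed between 1.41 and 2.09 over the 6 omissions. RSAD2 also has 3 probe sets among the controls of the array. The one at the 3′ end read 7.11, 6.24 and 5.54 in males and 4.21, 5.41 and 4.37 in females. The middle one differed by 0.53 between the means of the sexes, and the one at the 5′ end by 0.15. The sexes overlapped only at the 5′ end.

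ISG15, a ubiquitin-like protein that is joined to viral and host proteins, read 10.60, 10.44 and 9.82 in males 1, 2 and 3, against 8.58, 9.72 and 8.72 in females 1, 2 and 3. Every male was above every female, and the highest female was again female 2. The log2 fold change, 1.28 with a standard error of 0.33, did not pass (adjusted p = 0.065 under the CV filter and 0.159 over all probe sets). Under the CV filter, ISG15 was called together with RSAD2 without male 3 or without female 2. OAS1, which senses double-stranded RNA and activates RNA decay through RNase L, read 9.33, 8.83 and 8.45 in males and 7.93, 8.32 and 7.32 in females. The sexes did not overlap at OAS1 either, and its log2 fold change of 1.02 did not pass (standard error 0.30, adjusted p = 0.105 under the CV filter and 0.189 over all probe sets).

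The IFIT proteins bind foreign RNA and block its translation, and IFIT1 and IFIT3 had larger log2 fold changes than IFIT2. IFIT3 read 10.33, 9.97 and 9.18 in males and 9.09, 9.09 and 9.15 in females, so that males 1 and 2 stood apart while male 3 lay just above the females. The difference in IFIT3 was 0.72 on the log2 scale (standard error 0.27, adjusted p = 0.254), and 1.04 without male 3, when it was called (limma, adjusted p = 0.0363). IFIT1 read 9.67, 9.41 and 8.94 in males and 8.94, 8.71 and 8.60 in females, which differed by 0.59 on the log2 scale (standard error 0.20, adjusted p = 0.218), and male 3 and female 1 were level to the second decimal. Its other 2 probe sets had log2 fold changes of 0.26 and 0.44. IFIT2 was between 7.44 and 7.65 on all 6 arrays, with a 95% interval of the log2 difference from -0.25 to 0.24, while its 2 other probe sets had log2 fold changes of 0.36 and 0.38.

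Among the remaining effectors, ISG12(A), a small interferon-induced mitochondrial protein of the IFI27 family, read 12.42, 12.84 and 12.53 in males and 11.87, 12.40 and 11.55 in females (log2 fold change 0.66, standard error 0.23, adjusted p = 0.229). MX1, a GTPase that traps viral nucleocapsids, read 11.27, 11.45 and 11.45 in males and 10.90, 11.27 and 10.18 in females (0.61, standard error 0.26, adjusted p = 0.298), and its lowest male and its highest female were level to the second decimal. For both genes female 2 lay at the edge of the males, and without female 3 the log2 fold change of MX1 was 0.31. EIF2AK2 (PKR), a kinase that stops translation on sensing double-stranded RNA, had a log2 fold change of 0.35, IFI35 one of 0.48, PARP9 one of 0.40, ISG20 one of 0.40 and IFI44L one of 0.14. IFI44L read 11.51, 11.79 and 11.67 in males and 11.75, 11.60 and 11.19 in females, with overlap. Of the 16 effectors, 13 had a higher mean in males, 8 of them without overlap of the sexes (15.7% of all annotated genes were so), and the median log2 fold change was 0.44. These counts describe the list, and no test was made of it.

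**Figure D2:**
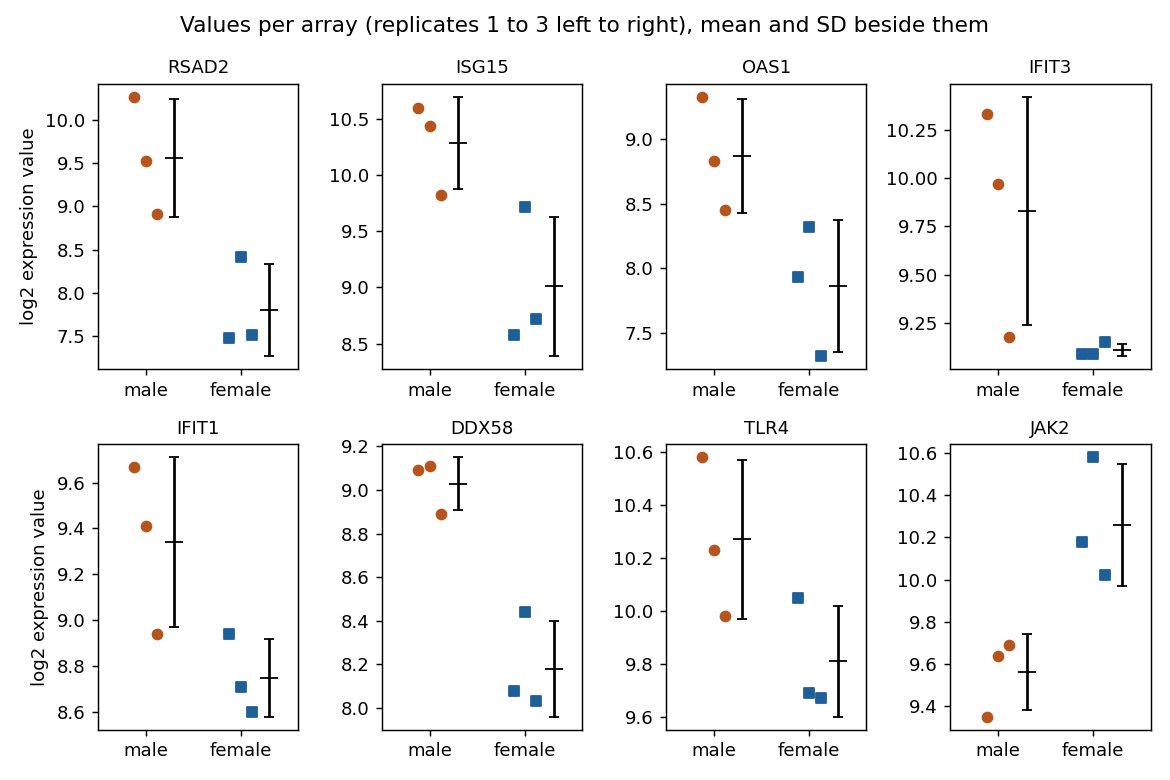
Log2 expression value (y axis, scaled separately for each gene) of 8 interferon genes on each male array (circles) and each female array (squares), with the mean and SD of the sex beside the points. In the panels of RSAD2, ISG15 and OAS1 female 2 is the female nearest to the males, and for JAK2 the males, at 9.35 to 9.69, lie below the females, at 10.02 to 10.58.

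The guanylate binding proteins, GTPases that attack the membranes of intracellular pathogens, did not follow RSAD2 over the arrays. GBP1 read 10.13, 11.56 and 9.79 in males and 11.76, 11.27 and 9.80 in females, so that male 2, female 1 and female 2 stood above the other 3 arrays. Its log2 fold change was -0.45 (standard error 0.61, adjusted p = 0.758), with a 95% interval from -1.87 to 0.98, and it ran from -1.02 without female 3 to -0.04 without female 1. The 2 other probe sets of GBP1 had log2 fold changes of -0.51 and -0.71. GBP2 followed the same arrays, with 8.01, 8.82 and 8.14 in males and 8.72, 8.55 and 8.04 in females (log2 fold change -0.11), a sign that turned without male 1 or female 1.

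Of the markers of other cell types, some endothelial genes moved with RSAD2, ISG15 and OAS1. Of 13 measured endothelial markers, 11 had a higher mean in males (84.6%, against 58.3% of all annotated genes). In 5 of these the sexes did not overlap (ICAM2, ESAM, TIE1, PECAM1 and FLT1). These are 38.5% of the 13 markers, against 15.7% of all annotated genes. The unlogged values of the 13 markers summed to 13300 to 28400 in males and 9440 to 15000 in females, and PECAM1, the brightest of them, weighs most in these sums. The junction protein ESAM read 10.18, 9.66 and 8.90 in males and 7.81, 8.42 and 7.72 in females, and the adhesion molecule ICAM2 10.28, 9.92 and 9.14 in males and 8.31, 8.15 and 7.78 in females. ESAM and ICAM2 both rose in males under the CV filter (limma, adjusted p = 0.0395 and 0.026) and were not called over all probe sets (adjusted p = 0.115 and 0.0751). The sexes overlapped at the other 8 markers, among them VWF, a clotting factor of endothelial cells, at 10.58, 10.90 and 9.68 in males and 9.27, 11.33 and 9.41 in females. ERG and KDR had log2 fold changes of -0.25 and -0.19. The probe set of KDR was dim, at 4.23 to 4.55 in males and 4.42 to 4.79 in females. The study, in contrast, reports KDR as higher in males and also measured it by qRT-PCR. The dim probe set used here did not show that rise, and the reason was not tested. PECAM1, a defining endothelial marker, read 12.61 to 13.69 in males and 11.83 to 12.28 in females although the leaflets had been scraped. KDR was the 1 marker of the 13 with a mean under 5.53. Lymphocyte markers summed to 645 to 1110 in males and 542 to 1380 in females, and macrophage markers to 19700 to 27100 in males and 16400 to 24600 in females. Genes of interstitial cells and fibroblasts summed to 95700 to 108000 in males and 107000 to 123000 in females. In whole tissue, fewer cells of a type and less RNA per cell cannot be told apart, and the part of the endothelial RNA or of RNA quality in the values of RSAD2 was not tested.

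Of the 8 sensors and adaptor, DDX58 and TLR4 had a limma p under 0.05 before adjustment, and the log2 fold changes of the other 6 lay between -0.11 and 0.31. DDX58, which detects viral RNA with a free triphosphate end, read 9.09, 9.11 and 8.89 in males and 8.08, 8.44 and 8.03 in females. Every male was above every female, with means of 9.03 ± 0.12 in males and 8.18 ± 0.22 in females (SD, n = 3 each). The difference was 0.85 on the log2 scale, or 1.80-fold (standard error 0.14, adjusted p = 0.0704), and the other probe set of DDX58 had one of 0.80. The CV filter did not keep DDX58. TLR4, the receptor for bacterial lipopolysaccharide, read 10.58, 10.23 and 9.98 in males and 10.05, 9.69 and 9.67 in females (0.46, standard error 0.18, adjusted p = 0.270), and its other 4 probe sets had log2 fold changes of 0.19 to 0.66. The sexes overlapped at TLR4, since female 1 lay above male 3.

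TLR2, which recognises bacterial lipoproteins together with TLR1 or TLR6, ranged from 10.67 to 11.09 in males and from 10.49 to 10.97 in females (log2 fold change 0.06, 95% interval from -0.34 to 0.46). TLR6 and TLR9, an endosomal receptor for DNA, had log2 fold changes of 0.31 and 0.21. The means of TLR1 and of the RNA receptor TLR8 were under 5.53 in both sexes, so their probe sets are dim. MAVS, the mitochondrial adaptor through which DDX58 signals, was low, at 5.63, 5.95 and 5.87 in males and 5.97, 5.76 and 6.04 in females, with a log2 fold change of -0.11 (adjusted p = 0.713).

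Of the 12 receptors, kinases and STAT factors, 4 were higher and 8 lower in males by their means, and JAK2 was the 1 interferon gene of the 55 with lower values in all males than in all females. This kinase, which carries signals of interferon gamma and of many cytokine receptors, read 9.35, 9.64 and 9.69 in males 1, 2 and 3 and 10.18, 10.58 and 10.02 in females 1, 2 and 3. The means were 9.56 ± 0.18 in males and 10.26 ± 0.29 in females (SD, n = 3 each), which differ by -0.70 on the log2 scale (standard error 0.17, adjusted p = 0.144). The other probe set of JAK2 had a log2 fold change of -0.52, with overlap of the sexes. JAK1, the kinase shared by both interferon receptor types, stayed between 11.69 and 11.80 in males and between 11.73 and 11.88 in females (95% interval of the log2 difference from -0.28 to 0.18). TYK2, the kinase bound to IFNAR1, ranged from 10.81 to 10.90 in males and from 10.68 to 10.77 in females, without overlap but with a log2 fold change of only 0.10.

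The 2 chains of the type I interferon receptor had similar log2 fold changes, 0.45 for IFNAR1 and 0.49 for IFNAR2 (adjusted p = 0.312 and 0.294). IFNAR1 read 10.36, 10.36 and 9.98 in males and 10.02, 9.95 and 9.39 in females, and IFNAR2 9.40, 9.51 and 9.14 in males and 9.05, 9.11 and 8.42 in females, with female 3 the lowest for both. IFNGR1, the ligand-binding chain of the interferon gamma receptor, lay between 10.28 and 10.43 on all 6 arrays, with a 95% interval of the log2 difference from -0.23 to 0.22.

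None of the 6 STAT factors measured was called. STAT4, which acts in lymphocytes, read 5.47, 5.74 and 5.42 in males and 6.43, 5.62 and 5.95 in females (log2 fold change -0.46, adjusted p = 0.327). STAT6, the factor of interleukin 4 signalling, read 8.10, 8.36 and 8.27 in males and 8.56, 8.27 and 8.81 in females (-0.30, adjusted p = 0.382). STAT3, the factor of the interleukin 6 family, read 11.57, 11.65 and 11.66 in males and 11.47, 11.98 and 11.36 in females (0.02), so the 3 males lay between the females. STAT2, a partner of IRF9 in the complex that type I interferon activates, had a log2 fold change of -0.07, and STAT5A and STAT5B of -0.08 and -0.03.

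Of the 6 interferon regulatory factors, which bind the control regions of interferon and interferon-stimulated genes, 5 were higher and 1 lower in males by their means, with log2 fold changes from -0.17 to 0.39. IRF9, the DNA-binding part of the type I interferon complex, averaged 9.90 ± 0.10 in males and 9.51 ± 0.20 in females (SD, n = 3 each) and did not overlap (log2 fold change 0.39, standard error 0.13, limma adjusted p = 0.220). IRF7, the main amplifier of type I interferon production, read 8.50, 8.78 and 8.26 in males and 8.34, 8.47 and 8.08 in females (0.22, adjusted p = 0.552). IRF1 read 9.46, 9.94 and 8.93 in males and 9.88, 10.39 and 8.58 in females (-0.17, adjusted p = 0.887), and its range over the arrays, 1.81, was wider than its difference between the sexes. IRF8, a factor of macrophages and dendritic cells, ranged from 9.11 to 9.90 in males and from 8.72 to 10.09 in females, and IRF2 and IRF3 had log2 fold changes of 0.27 and 0.13.

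The 4 antigen processing genes all had a higher mean in males, with overlap of the sexes at each. For PSMB8, TAP1 and B2M the difference shrank most without female 3, and also without male 2. TAP1, which pumps peptides into the endoplasmic reticulum, read 10.16, 10.43 and 9.70 in males and 10.36, 9.78 and 9.06 in females, and PSMB8, a subunit of the immunoproteasome, 9.94, 10.32 and 9.37 in males and 10.25, 9.50 and 8.94 in females. Both were highest in male 2 and lowest in female 3, and their log2 fold changes were 0.36 and 0.31 (adjusted p = 0.635 and 0.709). They were 0.03 and 0.00 without female 3, and 0.19 and 0.09 without male 2. At the 2 other probe sets of TAP1 the log2 fold changes were -0.04 and -0.05, but these read far lower, at 6.08 to 6.23 and 5.22 to 5.72. B2M, the light chain of MHC class I, read 14.55, 14.64 and 14.40 in males and 14.61, 14.42 and 14.23 in females (0.11, 95% interval from -0.20 to 0.42). Its log2 fold change was 0.01 without female 3 and 0.05 without male 2. The annotation assigns 9 probe sets to B2M, and they did not move as one, with log2 fold changes from -0.72 to 0.61. IFI30, a lysosomal thiol reductase that opens antigens for MHC class II, had a log2 fold change of 0.23.

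Of the inhibitors, USP18, which removes ISG15 from proteins and blocks IFNAR2, read 9.43, 9.53 and 9.35 in males and 9.17, 9.12 and 8.07 in females (log2 fold change 0.65, standard error 0.28, adjusted p = 0.309). The sexes did not overlap, and female 3 stood below all other arrays, without which the log2 fold change was 0.29. SOCS1, which blocks JAK kinases, read 8.11, 8.34 and 8.17 in males and 9.12, 8.16 and 8.49 in females (-0.39, adjusted p = 0.454, and -0.12 without female 1), and its 2 other probe sets had log2 fold changes of -0.30 and -0.49. SOCS3, which restrains STAT3, ranged from 5.73 to 6.53 in males and from 5.85 to 6.90 in females. The ubiquitin ligases TRIM24, TRIM26 and TRIM27 had log2 fold changes of 0.32, 0.13 and 0.34, with the mean of TRIM26 under 5.53. TRIM29, ISG20L2 and IRF2BP1, which the prefixes took in with the rest, had log2 fold changes of 0.07, 0.18 and 0.06.

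**Figure D3:**
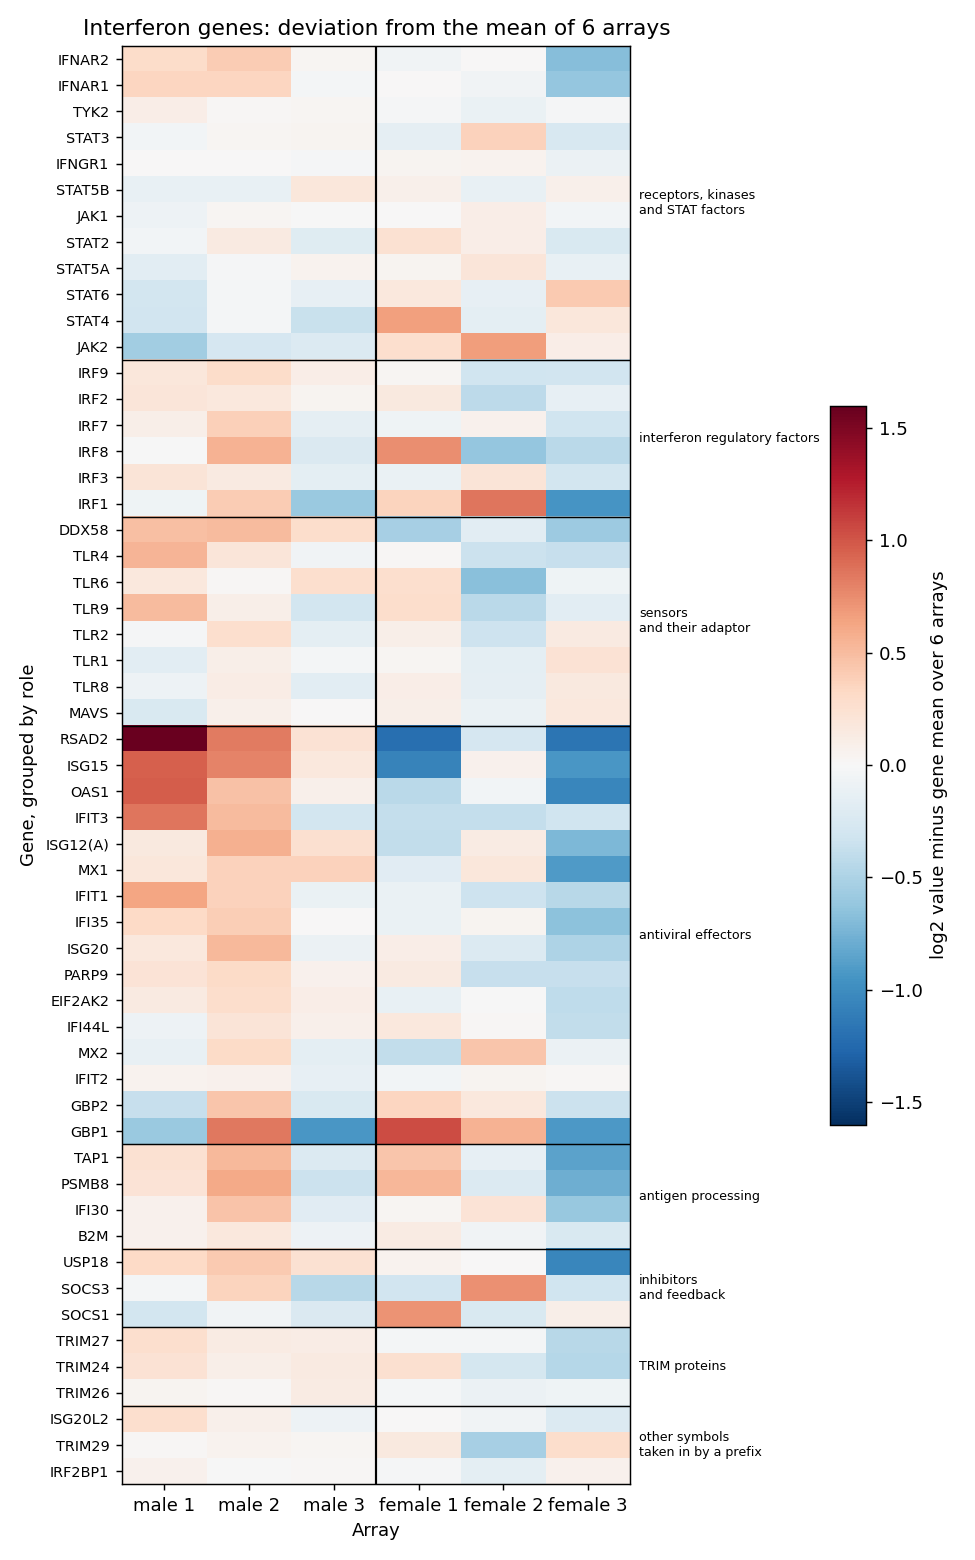
Deviation of the log2 value from the mean of the 6 arrays (colour) for each of the 55 interferon genes (rows, grouped by role and sorted by log2 fold change) on each array (columns, males left). Male 2 was the highest array for 20 genes and female 3 the lowest for 27.

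By their median deviation from the mean, the interferon genes were highest in male 2 and lowest in female 3. Male 2 was the highest array for 20 of the 55 genes, compared with 9.18% of all annotated genes, and was the lowest for 0, compared with 9.7%. Female 3 was the lowest for 27 of the 55, compared with 22.3% of all annotated genes. The median deviation of the 55 genes from their own mean over the 6 arrays was 0.10, 0.20 and -0.03 in males 1, 2 and 3, against 0.04, -0.06 and -0.32 in females 1, 2 and 3. That of all annotated genes lay between -0.02 and 0.04. Without female 3 the median log2 fold change of the interferon genes was 0.11, and without male 2 it was 0.09. Female 3 is also the array with the largest 3′ to 5′ differences of actin and GAPDH, whose part in its low values was not tested.

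The genes followed several patterns over the arrays, which are given as descriptions over 6 arrays of 3 males and 3 females that share a sex difference. ISG15, DDX58 and OAS1 followed RSAD2 at a Pearson r of at least 0.9 (0.97, 0.95 and 0.95), as did 8.46% of all annotated genes, so the likeness to RSAD2 is common on these arrays. ESAM correlated with RSAD2 at 0.99 and ICAM2 at 0.94. With ICAM2, 16 of the 55 genes correlated at 0.8 or more (29.1%, against 15.6% of all annotated genes), among them IFIT1 at 0.96, TLR4 at 0.92 and IFIT3 at 0.91, so the likeness to an endothelial gene was not limited to RSAD2, ISG15 and OAS1, and its part in the values of these genes was not tested. GBP2 and STAT2 followed GBP1 at 0.96 and 0.97, a likeness met by 0.325% of all annotated genes at 0.9, and IRF1 did so at 0.86. Outside the rule, the interferon gamma-induced chemokine CXCL9 correlated with GBP1 at 0.97, with 7.10, 12.05 and 7.62 in males and 11.54, 10.75 and 6.87 in females, high and low values in both sexes. The T cell marker CD3E, at 6.46, 7.93 and 6.36 in males and 8.48, 6.11 and 6.21 in females, was high in male 2 and female 1 as GBP1 was, but not in female 2 (r = 0.75 with GBP1). IRF8 followed CD3E at 0.96, and PSMB8 did so at 0.82. Of the annotated genes outside the rule, CENPT, ATOX1 and CDK2AP2 were the most like the median deviation of the 16 effectors (r = 0.991, 0.986 and 0.98).

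**Figure D4:**
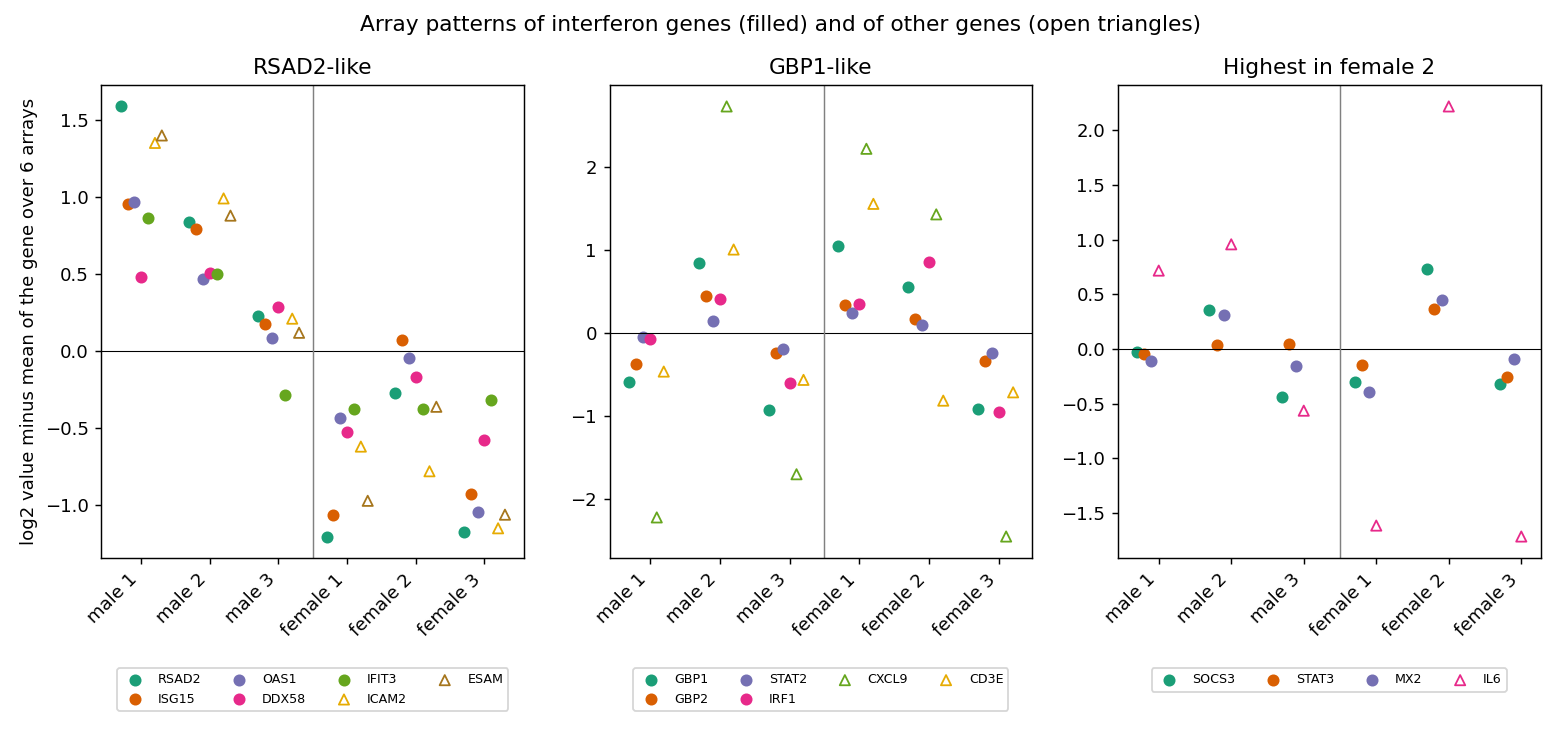
Deviation of the log2 value from the mean of the 6 arrays (y axis) on each array (x axis) for interferon genes (filled circles) and other genes (open triangles). RSAD2, ISG15 and OAS1 are highest in males 1 and 2, and DDX58 is high in all 3 males. GBP1, GBP2 and CXCL9 are high in male 2 and females 1 and 2, and SOCS3, STAT3, MX2 and IL6 are highest in female 2.

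Female 2 was the highest array for 8 of the 55 genes, compared with 17.4% of all annotated genes, so it was not the highest more often than over all genes. SOCS3, STAT3 and MX2, a relative of MX1, had their highest values there (6.90, 11.98 and 7.88) and correlated with the cytokine gene IL6 at 0.90, 0.88 and 0.85. IL6 itself ranged from 8.72 to 10.24 in males and read 7.67, 11.50 and 7.57 in females. IRF3 also correlated with IL6, at 0.90, and a correlation of at least 0.8 with IL6 was met by 4 of the 55 genes (7.27%) and by 6.05% of all annotated genes. The share of interferon genes with this likeness was thus close to that of all genes.

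Genes that lie side by side in the pig genome were compared over the arrays, by the order of genes in the RefSeq annotation of Sscrofa11.1. MX1 and MX2 are neighbours, with log2 fold changes of 0.61 and 0.02 and r = 0.36, or -0.01 at the other probe set of MX2. IFIT1 and IFIT3 are neighbours with r = 0.95, and IFIT2 lies next to IFIT3 on its other side. The correlation of IFIT2 with IFIT3 depended on the probe set, at 0.57 for the nearly flat one used here and 0.80 and 0.97 for the others. IFNAR1 and IFNAR2, which have 1 other gene between them, correlated at 0.99, or 0.83 at the other probe set of IFNAR2. GBP1 and GBP2 correlated at 0.96, 0.96 and 0.52 over the probe sets of GBP1. PSMB8 and TAP1 correlated at 0.99, 0.54 and 0.42 over those of TAP1, where 0.54 and 0.42 come from its low, nearly flat probe sets. STAT3, STAT5A and STAT5B also lie together. STAT3 correlated at 0.75 with STAT5A and at -0.48 with STAT5B, and STAT5A correlated with STAT5B at 0.03. These values also changed with the probe set. The dim TLR1 and its neighbour TLR6 correlated at 0.24. IFIT1 and IFIT2 correlated at 0.38, or at 0.66 to 0.97 with other probe sets. Neighbours outside the rule were not compared.

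The other genes of the pathway were read from lists of ligands, adaptors, antigen presentation genes and further interferon-stimulated genes, of which 58 were measured. None passed limma over all probe sets or with the CV filter, and 8 were higher and 0 lower in males at an unadjusted limma p under 0.05 (13.8%, where 11.0% of all annotated genes were higher). Of the genes that encode interferons, IFNB1 lay between 2.65 and 3.31 and IFNG between 3.87 and 4.80 on the 6 arrays, both under 5.53, and IFNA1 between 6.48 and 6.72. The cytokine IL15, which supports natural killer and T cells, read 9.83, 9.20 and 8.67 in males and 8.40, 8.10 and 7.40 in females (log2 fold change 1.27, standard error 0.35, limma adjusted p = 0.0676 under the CV filter). LGALS9, an interferon-inducible lectin, read 9.11, 9.12 and 8.46 in males and 7.93, 7.86 and 7.52 in females (log2 fold change 1.13, standard error 0.21, limma adjusted p = 0.0596 under the CV filter). In all, 11 of the 58 had higher values in all males than in all females (19.0%, against 15.7% of all annotated genes). Beside IL15 and LGALS9 these were IL18, IL10, XAF1, PNPT1, DDX60, VCAM1, ZBP1, CALR and PDIA3, with log2 fold changes from 0.15 to 0.97, and none of the 14 adaptors and kinases did. The MHC class I genes SLA-2 and SLA-3 had log2 fold changes of 0.13 and -0.01.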

How the data were processed

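The authors normalized the arrays with RMA (R 2.12.0, per the submitters' processing notes), after labelling 400 ng of RNA per sample, and deposited log2 values for 24123 probe sets, which were read here without further normalization. Sexes were compared by lmFit and eBayes (limma 3.58.1, R 4.3.3), taking males minus females without covariates, and p values were adjusted by Benjamini-Hochberg within each run. The text of the study names a CV filter without its share and describes it as dropping values too unlike between replicates. That wording can be read as the opposite end, but the study lists RSAD2 among its differentially expressed genes. The 10% with the highest CV was taken, which gave 183 called probe sets, the number of genes that the study reports. The 1 call among the 55 genes rests on the use of such a filter, since none was called over all probe sets. It was kept with a filter of 20% and with a CV of unlogged values. Of the 2412 probe sets kept, 5 are controls. Python 3.11.15 and matplotlib 3.10.9 were used for counts and figures. The code was tested on simulated data. Of the probe sets, 198 carry several symbols and 13732 none, and neither kind was given to a gene. All 55 genes matched the RefSeq table by identifier. The 3 control probe sets of RSAD2 were not counted as members. The number of arrays limits the precision.

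Values on every array were planned for called genes, the 8 largest log2 fold changes in each direction, the 5 highest means, the 8 widest ranges over the arrays and a set of well-known genes. IFNAR1, IFNAR2, IFNGR1, TYK2, STAT2, SOCS3, MX2, IFIT2, IRF8, IRF9, TLR2, other members given with values, and the genes outside the rule were picked after their values had been seen. The members and lists were chosen with earlier results of these data known. Alternatives were other probe set choices, filters, variance settings, centring, a replicate block and the omission of each array. A planned search of promoter sequences was not made.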

Additional observations from a re-analysis of the deposited data

How the results depend on the processing

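Over all probe sets, 0 of the 55 genes were called with all arrays, and the omission of 1 array gave 0 to 1 (IFIT3, without male replicate 3). With the CV filter, 1 gene was called, and the omissions gave 0 to 2, with ISG15 as the second without male replicate 3 or female replicate 2. With the replicate number as a block, 2 genes were called with the CV filter (RSAD2 and ISG15), and the block changed no call over all probe sets. The labels do not say that a number pairs pigs, so the numbers were not taken to pair them. The deviations of same-numbered arrays correlated at -0.10, 0.01 and 0.27, and those of the other pairs at -0.22 to 0.21. With deviations taken from the mean of only 3 arrays a sex, these values cannot show or exclude a pairing. The median log2 fold change of 0.18 was 0.09 to 0.26 over the omissions and 0.17 to 0.23 with median-centred arrays, the replicate block, a filter on dim probe sets, the probe set of highest variance or the mean of all probe sets. Calls did not change with an intensity trend, robust variances, no minimum fold, a CV filter of 20% or a CV of unlogged values. Signs turned over the omissions at GBP2 (-0.36 to 0.04, and 0.03 without female replicate 1), IFI44L (-0.02 to 0.26), IRF1 (-0.69 to 0.21, and 0.09 without male replicate 3) and STAT3 (-0.10 to 0.21, and -0.04 without female replicate 1), and at other probe sets of B2M (-0.72, -0.10 and -0.07) and of TAP1 (-0.04 and -0.05). The cause was not tested. Depth is not defined for arrays, and dim probe sets under 5.53 limit TLR1, TLR8 and TRIM26. Some of the other probe sets are dim as well, 1 of TAP1 among them.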
